A study of Mus musculus with 7 samples.

Results

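Genes of 9 cell-surface antigens that are used to place B-cell precursors on their developmental path were read in 5 mouse leukaemias of the B-ALL type (B-cell acute lymphoblastic leukaemia). The genes are Ms4a1, Cd24a, Cd34, Cd52, Cd93, Enpep, Mme, Cd38 and Bst1, chosen by name, and each matched 1 of the 24726 gene entries of the deposited tables (9 of 24726). Polyadenylated RNA was sequenced from all 5 samples, which are on the C57BL/6 strain. The 3 Pax5-Etv6 B-ALL libraries carry the genotype Cdkn2ab+/-Pax5Etv6/+, that is, a Pax5 allele fused to Etv6 beside a normal one, with 1 copy of the Cdkn2a and Cdkn2b tumour suppressor locus lost. They were made from whole lymph node taken directly from the animal. The 2 control B-ALL libraries carry the genotype Trp53-/- NrasG12D/+ with a retroviral Myc, so they lack p53 and hold an activated Ras, and they come from whole bone marrow kept in culture for a short time. Neither group was sorted, and the labels give no age, no clone and no link between a library and an animal. A strand-specific cDNA step is described for the Pax5-Etv6 libraries only. Tissue and culture change together with genotype and cannot be told apart from it here. p-values therefore measure the spread between these samples, which may be technical. In bulk RNA, fewer cells of a type and less RNA per cell cannot be told apart.

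Early B cells are staged by the order in which surface proteins appear and disappear. In the mouse bone marrow scheme, cells that carry CD43 first gain the heat-stable antigen encoded by Cd24a, then the peptidase BP-1 encoded by Enpep, while AA4.1, encoded by Cd93, marks progenitors and newly formed B cells and is lost on maturation. Cd34 and the human leukaemia antigen CD10, encoded by Mme, belong to earlier progenitors. CD20, encoded by Ms4a1, and CD52 become abundant on later B cells, and both are targets of therapeutic antibodies. Cd38 and Bst1 encode a pair of related ectoenzymes that consume NAD.

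Recovered reads, which are lower bounds on the reads behind the values, ran from 20110584 to 50994548 per library. Correlations between libraries over the tested genes (Pearson, log2 scale) were 0.955 to 0.978 within groups and 0.772 to 0.846 between them. Replicate 1 of the Pax5-Etv6 libraries lay apart on the second principal component (10.4% of the variance), at 49.9 against -23.1 and -23.2 for replicates 2 and 3, so values without it are given where they differ. Trp53, deleted in the controls, read 454 to 490 TPM (a transcript level scaled by gene length and library size) in Pax5-Etv6 B-ALL and 11.3 and 20.5 TPM in the controls. All 13 B-lineage markers that were looked up were above 0 in every library.

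The antigens did not move as a group. Cd93 and Cd52 were higher in Pax5-Etv6 B-ALL, Enpep, Cd24a and Bst1 were lower, and Cd38 and Ms4a1 were not called. Mme and Cd34 stayed under the filter on low values (at least 1 TPM in at least 2 libraries) and were not tested. Of 7 tested antigens, 5 were thus called with limma at an adjusted p under 0.05 (2 higher and 3 lower), against 51.7% of the 11805 genes tested, of which 21.9% were higher and 29.7% lower. With so many genes called, 5 of 7 is no result about the antigens. Enpep, which is among the 3 called lower, passed the filter only through the controls, where it is high. Its call is therefore no result, and its difference is described by its values. Without control replicate 1 only Cd93 rose, and without Pax5-Etv6 replicate 3 only Enpep fell. The 2 groups did not overlap in 6 of the 7, against 72.2% of all tested genes (32.1% higher and 40.1% lower in Pax5-Etv6 B-ALL). The median log2 fold change of the 7 was 0.07, beside -0.11 over all tested genes.

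**Figure D1:**
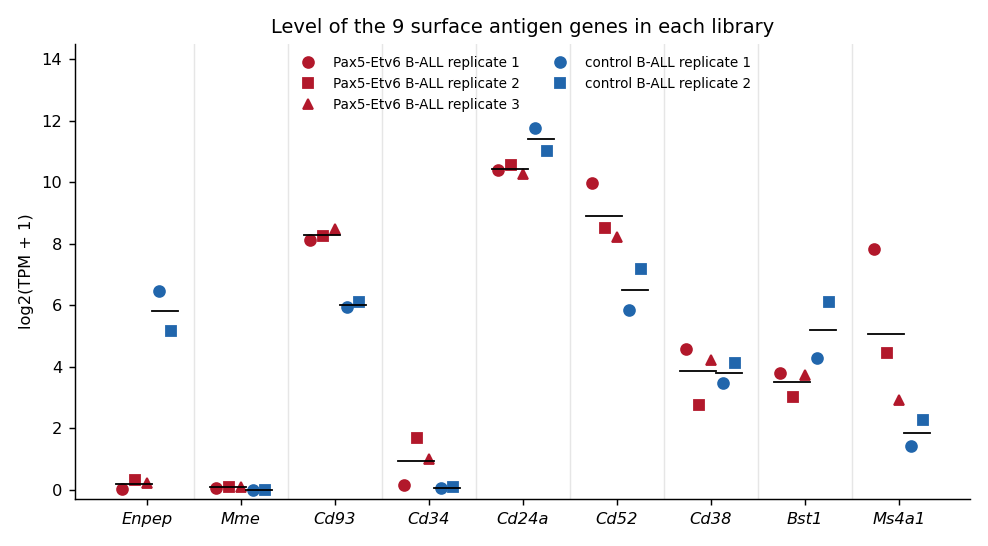
Level of each of the 9 antigen genes as log2(TPM + 1) on the vertical axis, with 1 point per library (red, 3 Pax5-Etv6 B-ALL; blue, 2 control B-ALL) and a bar at each group's mean. Enpep is near 0 in the red libraries and high in the blue ones, Cd93 and Cd52 are higher in red, Cd24a is high in all 5, and the points of Cd38 overlap.

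Cd24a was the most abundant of the 9 antigens per length in each of the 5 libraries, and Mme was the lowest in 4 of them. In Pax5-Etv6 B-ALL it was followed by Cd52 and Cd93, whose levels overlapped between libraries, then by Ms4a1, Cd38 and Bst1, which changed places from library to library. In the controls Enpep, which was next to last or last in Pax5-Etv6 B-ALL, ranked 2 in replicate 1 and 5 in replicate 2. The rank of Cd24a among all entries was 63 to 81 in Pax5-Etv6 B-ALL and 15 and 34 in the controls.

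**Figure D2:**
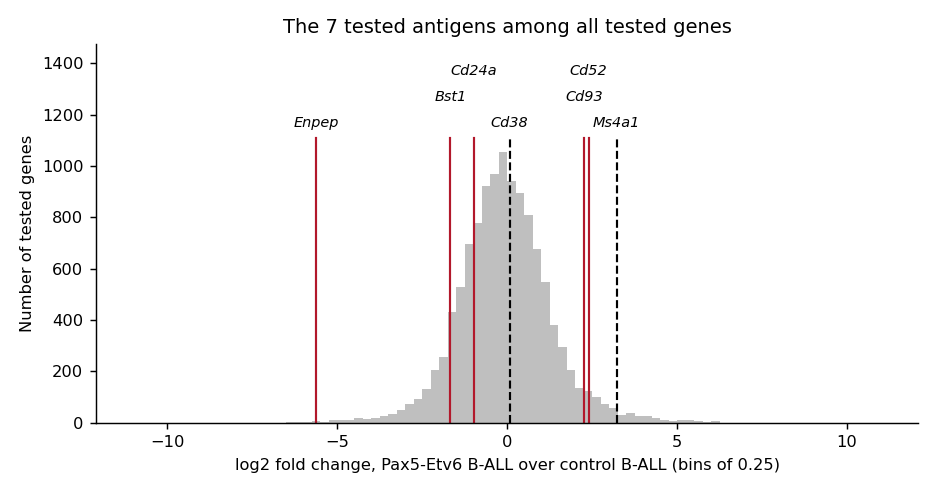
Histogram of the log2 fold change (Pax5-Etv6 B-ALL over control B-ALL, bins of 0.25) of all 11805 tested genes, with lines at the 7 tested antigens (solid red, called; dashed black, not called). Enpep lies in the far left tail at -5.63, Cd93 and Cd52 on the right shoulder at 2.26 and 2.40, and Cd38 near the centre at 0.07.

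Of the cell-surface peptidases, Enpep differed most. Enpep encodes the glutamyl aminopeptidase known on B-cell precursors as BP-1 or 6C3, which removes acidic residues from the ends of peptides such as angiotensin. Its level was 0.0219, 0.235 and 0.163 TPM in replicates 1, 2 and 3 of Pax5-Etv6 B-ALL, the order used throughout, and 88.0 and 34.6 TPM in replicates 1 and 2 of control B-ALL. The groups were far apart: the Pax5-Etv6 values rest on 1, 9 and 9 recovered reads, against 7707 and 1781 in the controls. The exact Poisson intervals (95%, counting error only) reached at most 0.447 TPM in any Pax5-Etv6 library. The ratio of group means was 437, at 0.140 ± 0.109 TPM (SD, n = 3) against 61.3 ± 37.8 TPM (SD, n = 2). On the log2(TPM + 1) scale, which understates changes of low genes, the difference was -5.63 (SE 0.43). Its size depends on the pseudocount, at -7.97 with 0.1 TPM and -3.56 with 5 TPM, and it was -8.86 with voom on recovered reads. Because Enpep entered the test only through the controls, a difference had to follow, and no test is given for it.

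The promoters of Enpep and Cd38 are shown because they are the tested antigens for which a promoter sequence was at hand, the former with the widest difference of the 7 tested and the latter with none that was called. Each is the 250 bases before the start of the gene on its own strand, from RefSeq (build GRCm38.p6, whereas the deposited values were made on mm9). Enpep lies on the minus strand at chr3:129332750-129332999 and Cd38 on the plus strand at chr5:43868559-43868808. Capitals mark every E-box (CANNTG, the motif of E2A-type factors) and every ETS core (GGAA on either strand, the core that ETS-family factors such as Etv6 bind).
Enpep: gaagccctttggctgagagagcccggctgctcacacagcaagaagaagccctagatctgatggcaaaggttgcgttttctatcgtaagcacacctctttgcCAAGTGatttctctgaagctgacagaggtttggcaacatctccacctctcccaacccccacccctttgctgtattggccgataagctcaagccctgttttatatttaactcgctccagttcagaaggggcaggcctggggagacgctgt
Cd38: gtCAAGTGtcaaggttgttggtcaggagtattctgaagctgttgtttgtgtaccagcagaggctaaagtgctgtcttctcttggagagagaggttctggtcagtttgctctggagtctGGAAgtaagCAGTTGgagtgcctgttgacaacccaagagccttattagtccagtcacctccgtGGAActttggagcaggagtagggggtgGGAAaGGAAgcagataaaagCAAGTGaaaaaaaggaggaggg
The Enpep window holds 1 E-box and no ETS core, and the Cd38 window holds 3 E-boxes and 4 ETS cores. Among 32851 promoter windows of this length, 66.2% hold an E-box and 93.4% an ETS core, so both motifs are common. The TATA box letters TATAAA, found in 12.4% of windows on either strand, occur once in the Enpep window, on the strand opposite to the one printed, and on neither strand of that of Cd38. These matches describe letters and do not show binding.

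Mme encodes neprilysin, the zinc peptidase CD10 that marks the common form of human childhood B-ALL. It was close to absent in all 5 mouse libraries, at 0.0435, 0.0519 and 0.0720 TPM in Pax5-Etv6 B-ALL, where 1, 1 and 2 reads were recovered, and at 0 in both controls. A count of 0 still allows 3 reads, or 0.0680 and 0.116 TPM in control replicates 1 and 2, so a difference between groups was not detectable at this depth. The 2 peptidases thus stood at similar, near-zero levels in Pax5-Etv6 B-ALL, whereas in the controls Mme minus Enpep was -6.48 and -5.15 on the log2(TPM + 1) scale.

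Cd93 separated the groups with the smallest SE of the 7 tested antigens. Cd93 encodes a C-type lectin-like receptor, the AA4.1 antigen, which on B cells marks progenitors and transitional cells. It had 277, 303 and 353 TPM in Pax5-Etv6 B-ALL, and 60.6 and 67.6 TPM in the controls. Every Pax5-Etv6 library was thus well above both controls, with means of 311 ± 38.4 (SD, n = 3) and 64.1 ± 4.93 TPM (SD, n = 2). The log2 fold change was 2.26 ± 0.16 SE (adjusted p = 0.000446), and it stayed between 2.16 and 2.39 under the 15 alternatives, each of which kept the call. Endothelial and myeloid cells also express Cd93. The 14 endothelial markers that were looked up summed to 7.78, 63.3 and 36.2 TPM in Pax5-Etv6 B-ALL and 23.3 and 15.7 TPM in the controls. The 13 macrophage markers summed to 191, 651 and 230 TPM, against 25.8 and 72.9 TPM in the controls. Summed neutrophil markers were 269, 35.4 and 150 TPM, against 0.625 and 0.722 TPM. The part of such cells in the Cd93 difference was not tested.

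The genes of 2 small glycoproteins held by a lipid anchor, Cd24a and Cd52, moved in opposite directions. Cd24a encodes the heat-stable antigen, a short sialylated protein that rises early in B-cell development and binds Siglec-G. It had 1365, 1520 and 1237 TPM in Pax5-Etv6 B-ALL and 3464 and 2088 TPM in the controls. All 3 Pax5-Etv6 values were below both controls, and the controls differed from each other by 1.66-fold. Cd24a fell by 0.97 on the log2 scale (SE 0.25, adjusted p = 0.0182), a change larger than that of 58.4% of tested genes. The call was lost without control replicate 1 (-0.61, adjusted p = 0.0844), without Pax5-Etv6 replicate 3 (-0.90, adjusted p = 0.0538) and with no filter (adjusted p = 0.0659). Over the 15 settings its adjusted p lay between 0.00919 and 0.0844. The mouse genome holds intronless copies of Cd24, so reads of this gene may be shared with them.

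Cd52 encodes the CAMPATH-1 antigen, a very short anchored peptide of lymphocytes and other leukocytes. It had 1002, 367 and 296 TPM in Pax5-Etv6 B-ALL and 56.1 and 143 TPM in the controls. Replicate 1 was far above replicates 2 and 3, and all 3 were above the controls. The log2 fold change was 2.40 ± 0.60 SE (adjusted p = 0.0167). Without control replicate 1 it was 1.73 and not called (adjusted p = 0.175), and without Pax5-Etv6 replicate 1 it was 1.86 and still called (adjusted p = 0.0116). These were the highest and lowest of its 15 adjusted p-values. The gap between the 2 anchored antigens narrowed accordingly: Cd24a exceeded Cd52 by 0.45, 2.05 and 2.06 on the log2 scale in Pax5-Etv6 B-ALL and by 5.92 and 3.86 in the controls. Macrophages and neutrophils also carry CD52. Neutrophil markers summed to 269, 35.4 and 150 TPM in Pax5-Etv6 B-ALL, against 0.625 and 0.722 TPM in control libraries. Macrophage markers summed to 191, 651 and 230 TPM, against 25.8 and 72.9 TPM. Among the Pax5-Etv6 libraries, replicate 1 was thus highest for neutrophil markers and lowest for macrophage markers. The part of such cells in the Cd52 result was not tested.

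The NAD-consuming ectoenzymes Cd38 and Bst1 lie next to each other in the genome, with no protein-coding gene between them in RefSeq, and their levels differed in pattern. Cd38 encodes the enzyme that makes cyclic ADP-ribose from NAD and binds CD31. It had 23.0, 5.81 and 17.6 TPM in Pax5-Etv6 B-ALL and 9.98 and 16.4 TPM in the controls. The groups overlapped, and the spread within Pax5-Etv6 B-ALL (3.96-fold from lowest to highest) was wider than the gap between the group means of 15.5 and 13.2 TPM. The log2 difference was 0.07 ± 0.56 SE (adjusted p = 0.927) with a 95% interval of -1.28 to 1.42, so a difference of more than 2-fold in either direction lies within the interval. Its sign was negative without Pax5-Etv6 replicate 1 (-0.30) and without Pax5-Etv6 replicate 3 (-0.11) or control replicate 1 (-0.26), with no call in any setting.

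Bst1 encodes CD157, or BP-3, an anchored relative of CD38 found on pre-B cells, myeloid cells and marrow stroma. It had 13.0, 7.02 and 12.4 TPM in Pax5-Etv6 B-ALL and 18.3 and 68.0 TPM in the controls. The groups did not overlap, although control replicate 1 was closer to the Pax5-Etv6 libraries than to control replicate 2. Bst1 fell by 1.67 on the log2 scale (SE 0.56, adjusted p = 0.0438). This call was lost in 9 of 15 alternative settings, with adjusted p-values from 0.0249 to 0.224. Without control replicate 2 the change was -0.76 (adjusted p = 0.224), without control replicate 1 it was -2.59 (adjusted p = 0.0249), and without Pax5-Etv6 replicates 2 and 3 in turn the adjusted p was 0.0911 and 0.0687. It was also lost with voom, quantile normalization, rescaling without the highest genes, a pseudocount of 5 TPM, no trend and no filter. Relative to Bst1 in the same library, Cd38 stood at 0.78, -0.24 and 0.48 on the log2 scale in Pax5-Etv6 B-ALL and at -0.82 and -1.99 in the controls, so this ratio did not overlap between groups. Markers of stromal cells, a cell type that carries Bst1, were lower in the group where Bst1 was higher. Their sum was 1.44 and 8.29 TPM in the controls and 83.1 to 793 TPM in Pax5-Etv6 B-ALL, and the part of stromal cells in the Bst1 values was not tested.

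**Figure D3:**
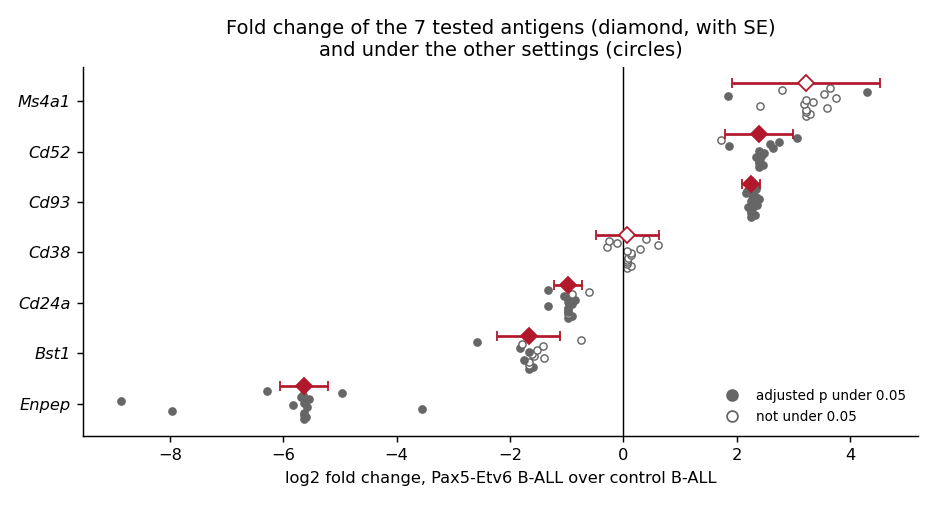
Log2 fold change (Pax5-Etv6 B-ALL over control B-ALL) of the 7 tested antigens, with the reported value and its SE as a red diamond (filled if called) and 15 alternative settings as circles (filled where the adjusted p is under 0.05). Cd93 is called throughout, Bst1 in 6 of 15 settings and Ms4a1 in 2, and Cd38 lies on both sides of 0. The points of Enpep are filled, but it passed the filter only through the controls, so they are no measure of how firm its difference is.

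Ms4a1, which encodes CD20, a membrane protein of the B lineage and the target of rituximab, varied most within a group. It had 225, 20.6 and 6.60 TPM in Pax5-Etv6 B-ALL and 1.66 and 3.81 TPM in the controls. All 3 Pax5-Etv6 libraries exceeded both controls, but replicate 1 was 34.1 times as high as replicate 3. The log2 fold change of 3.22 ± 1.31 SE was not called (adjusted p = 0.0806). It was called at 1.84 without Pax5-Etv6 replicate 1 (adjusted p = 0.0314) and at 4.29 without replicate 3 (adjusted p = 0.0246). The other 13 settings left it uncalled, with adjusted p-values up to 0.358. Markers of mature B cells were followed beside it. Their sum was 728, 211 and 300 TPM in Pax5-Etv6 B-ALL and 186 and 148 TPM in the controls. Of the 7 tested, 2 rose, beside 21.9% of all tested genes, so this count is no result about these markers. Klf2, the highest of them, a factor of resting lymphocytes, had 293 TPM in replicate 1 and 9.50 to 32.6 TPM in the other libraries. The receptors Fcer2a and Cr2, which define mature follicular and marginal-zone B cells, reached at most 0.938 and 0.674 TPM in any library. Not all of them were highest in replicate 1: Cxcr5 had 70.9, 67.6 and 151 TPM in Pax5-Etv6 B-ALL. Some genes of the pre-B stage are named after their values were seen. Vpreb1 and Igll1, the surrogate light chain of the pre-B-cell receptor, had 98.2 and 202 TPM in replicate 1 and 1079 to 1715 TPM in replicates 2 and 3. In the controls Vpreb1 had 95.6 and 15.4 TPM and Igll1 had 23.9 and 10.3 TPM. Rag1, of the enzyme that rearranges immunoglobulin genes, had 12.2, 124 and 180 TPM in Pax5-Etv6 B-ALL and 22.3 TPM in each control. Vpreb3, in the same list of B-lineage markers, differed less between the Pax5-Etv6 libraries, at 3175, 3695 and 4163 TPM. The part of normal B cells in the Ms4a1 values was not tested.

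Relatives of Ms4a1 in the same family were low. Of 15 matched members of the MS4A family other than Ms4a1, none passed 10 TPM in any library, and Ms4a5, Ms4a10, Ms4a13 and Ms4a18 had no read. Ms4a4b, Ms4a4c and Ms4a6b, named after their values were seen, had 6.31, 9.86 and 9.25 TPM in Pax5-Etv6 replicate 1 and at most 2.31 TPM elsewhere. They were under 1 TPM in both controls, so they passed the filter only through the Pax5-Etv6 libraries. The family did not share 1 order of libraries. Ms4a7 had 0.646, 3.78 and 1.42 TPM and Ms4a6d 0.673, 1.93 and 1.17 TPM in Pax5-Etv6 B-ALL, lowest in replicate 1.

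Cd34, the sialomucin of haematopoietic progenitors and of blood vessels, was scarce. It had 0.106, 2.18 and 0.989 TPM in Pax5-Etv6 B-ALL, from 3, 52 and 34 recovered reads, and 0.0367 and 0.0624 TPM in the controls, from 2 reads each. Replicates 2 and 3 were above the rest, while the counting interval of replicate 1 (0.0218 to 0.309 TPM) overlapped those of the controls. With no filter, the only setting that tested it, the log2 fold change was 0.87 ± 0.44 SE (adjusted p = 0.203). Its deposited name carries a tag that reads as overlap with another gene. Of the 14 endothelial markers, each was highest in replicate 2 and lowest in replicate 1 among the Pax5-Etv6 libraries, the order of Cd34. Against the controls they were mixed: 11 were higher in every Pax5-Etv6 library, 2 overlapped and 1, Egfl7, was lower. Over all tested genes 32.1% were higher without overlap and 40.1% lower. Of the 9 endothelial markers that passed the filter, 7 were under 1 TPM in both controls. Those 7 passed only through the Pax5-Etv6 libraries, so the count of 11 is no result about vessel markers. Egfl7, a factor secreted by vessels, had 2.50, 5.96 and 4.22 TPM against 19.9 and 10.9 TPM in the controls, and the vessel cadherin Cdh5 had 0.533, 8.45 and 3.14 against 2.26 and 3.87 TPM. Apart from Plvap, the highest, the vessel markers are named after their values were seen. Plvap ran in the same order of libraries, at 2.15, 25.6 and 14.9 TPM in Pax5-Etv6 B-ALL and 0.286 and 0.324 TPM in the controls. Tie1, a receptor of vessel cells, read 0.190, 2.67 and 1.42 TPM and the junction gene Cldn5 read 0.130, 2.49 and 1.02 TPM in Pax5-Etv6 B-ALL, and both were listed at 0 in both controls. Stem and progenitor markers summed to 13.7, 6.59 and 10.7 TPM in Pax5-Etv6 B-ALL and 6.63 and 20.0 TPM in the controls. The order of Cd34 among the Pax5-Etv6 libraries was not particular to vessel markers. Stromal markers summed to 83.1, 793 and 207 TPM there, and macrophage markers to 191, 651 and 230 TPM. The part of vessel, progenitor or other cells in the Cd34 values was not tested.

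**Figure D4:**
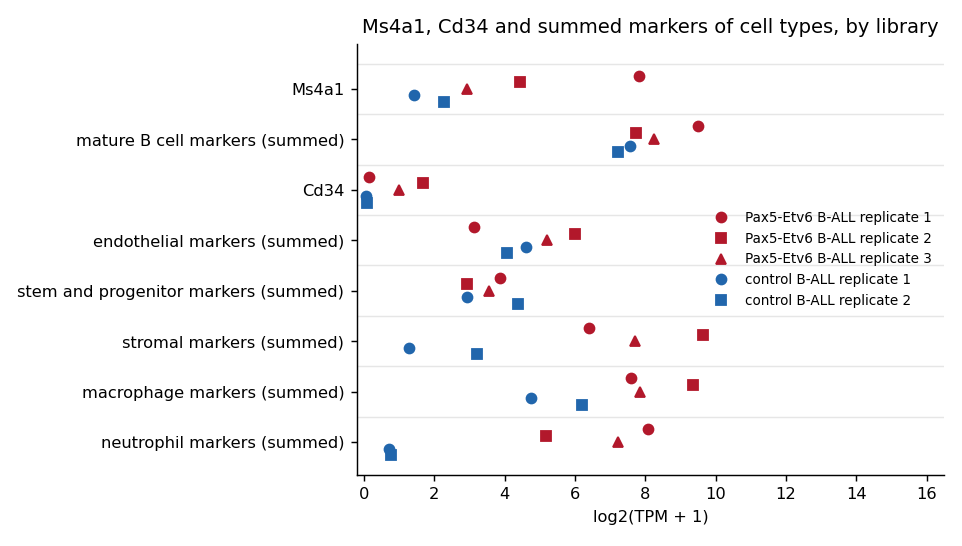
Levels of Ms4a1 and Cd34 and summed levels of marker lists of 6 cell types, as log2(TPM + 1) on the horizontal axis, with 1 point per library (red, 3 Pax5-Etv6 B-ALL; blue, 2 control B-ALL). Pax5-Etv6 replicate 1 (red circle) is highest for Ms4a1 and mature B-cell markers, replicate 2 (red square) is highest for Cd34 and endothelial, stromal and macrophage markers, and all 3 red libraries exceed the blue ones for stromal, macrophage and neutrophil markers.

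Markers of most other cell types were higher in the lymph node libraries. Summed macrophage markers were 191, 651 and 230 TPM in Pax5-Etv6 B-ALL and 25.8 and 72.9 TPM in the controls, led by the complement gene C1qc. Of 10 tested, 7 rose, beside 21.9% of all tested genes. Among these 10, 2 were under 1 TPM in both controls and so were tested only through the Pax5-Etv6 libraries. The 9 tested neutrophil markers, led by S100a9 at up to 96.9 TPM, were under 1 TPM in both controls, as were 5 of 7 tested stromal markers, whose highest was Col1a1 at up to 405 TPM. These passed the filter only through the Pax5-Etv6 libraries, so no count of calls is given for them. The T- and NK-cell markers summed to 10.5, 35.5 and 45.7 TPM against 0.896 and 1.57 TPM, and Cd3e was at 0 in both controls. Endothelial markers summed to 7.78, 63.3 and 36.2 TPM against 23.3 and 15.7 TPM. Dendritic-cell markers overlapped between groups, at 93.6 to 262 against 156 and 211 TPM. Of the erythroid markers, Alas2 reached 73.7 TPM in Pax5-Etv6 B-ALL and at most 0.583 TPM in the controls, while the globin entries Hba-a1, Hba-a2 and Hbb-b1 were listed at 0 in all 5 libraries.

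A list of 33 further surface antigens used for staging B cells gave the wider phenotype. Of 30 that were tested, 14 rose, 3 fell and 13 were not called (56.7% called, median log2 fold change 1.12). Over all tested genes 51.7% were called, 21.9% higher and 29.7% lower, with a median of -0.11. Of the 30, 4 were under 1 TPM in both controls and so were tested only through the Pax5-Etv6 libraries. Among those 4, Ly6a and Cd5 are counted in the 14 that rose, and their calls are no result. Without control replicate 1, 9 rose, and without Pax5-Etv6 replicate 1, 5 fell. Ly6d, which marks commitment to the B lineage, rose most, from 25.2 and 99.0 TPM in the controls to 2022, 2328 and 2101 TPM (5.39 ± 0.51 SE, adjusted p = 0.000765). Il2ra, the CD25 receptor chain of pre-B cells, rose from 20.3 and 15.0 TPM to 67.8, 152 and 153 TPM (2.67 ± 0.38, adjusted p = 0.00253). Ly6a, the stem-cell antigen Sca-1, is 1 of those 4, at 0.240 and 0.326 TPM in the controls and 3.19 to 7.76 TPM in Pax5-Etv6 B-ALL, and is given with no test.

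The 3 that fell were Tfrc, Flt3 and Cd48. Tfrc, the transferrin receptor of dividing cells, fell by 3.12 (adjusted p = 0.000893), from 519 and 312 TPM to 32.3, 56.5 and 51.8 TPM. The early progenitor receptor Flt3 fell from a mean of 6.52 to 1.85 TPM (adjusted p = 0.00971), and Cd48, a ligand of the SLAM family, fell by 1.31 (adjusted p = 0.00107). The remaining antigens of the bone marrow scheme, named here for that role after their values were seen, differed less. Spn, which encodes CD43, was higher, at 167, 193 and 193 against 96.2 and 69.1 TPM (1.16 ± 0.18, adjusted p = 0.00348). Ptprc, whose long form is B220, was not called at 130 to 148 against 114 and 120 TPM (0.24 ± 0.14, adjusted p = 0.183). Kit stayed under the filter, at most 0.278 TPM in 4 libraries and 10.03 TPM in control replicate 2. Binding partners of the antigens, also named after their values were seen, were in the list too. Pecam1, the CD31 that binds CD38, rose by 1.65 ± 0.17 (adjusted p = 0.000894), and Siglecg, a receptor for CD24, was not called (-0.69 ± 0.32, adjusted p = 0.116).

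**Figure D5:**
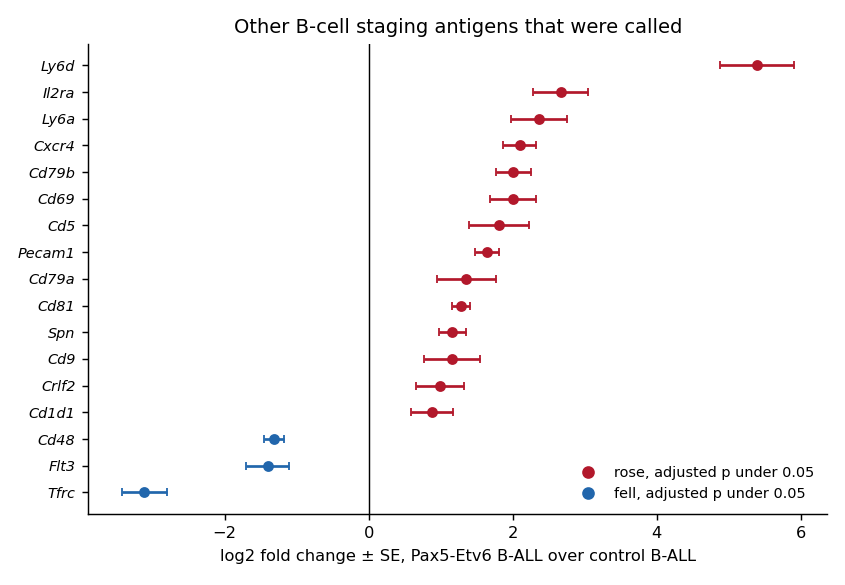
Log2 fold change with SE (Pax5-Etv6 B-ALL over control B-ALL, horizontal axis) of the staging antigens, other than the 9, that were called, in order of size. Red points rose (14) and blue points fell (3), with Ly6d at 5.39 and Tfrc at -3.12 at the ends. Ly6a and Cd5 are among the red points, but they passed the filter only through the Pax5-Etv6 libraries. Their points are no measure of how firm their differences are.

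Genes that share a protein family with an antigen moved in both directions. Of 17 tested relatives, 3 rose, 4 fell and 10 were not called (41.2% called, median 0.73). This share lies below the 51.7% of all tested genes (21.9% higher and 29.7% lower), and 7 of the 17 were under 1 TPM in both controls, so they were tested only through the Pax5-Etv6 libraries. In other fits 6 rose without Pax5-Etv6 replicate 1 and 2 fell without control replicate 1. Among aminopeptidases related to Enpep, Erap1, which trims peptides for MHC class I, fell by 1.15 (adjusted p = 0.00485) and Rnpep rose by 1.13 ± 0.14 (adjusted p = 0.0016). Both changes were small beside that of Enpep. Ece2, an endothelin-converting relative of neprilysin, fell by 1.09 (adjusted p = 0.00883). Cd248, a lectin-like relative of Cd93 known from stromal cells, had 0.0188 and 0.447 TPM in the controls and 8.90, 13.7 and 7.95 TPM in Pax5-Etv6 B-ALL, where stromal markers were higher too. It is 1 of those 7, so its values are given with no test, and the part of stromal cells in them was not tested.

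The pathways behind the antigens were read from lists of their own. Cd24a, Cd52 and Bst1 are held by a glycosylphosphatidylinositol (GPI) anchor, whose synthesis takes a chain of enzymes in the endoplasmic reticulum. Of 27 tested genes of GPI synthesis and attachment, 3 rose, 9 fell and 15 were not called (44.4% called, beside 51.7% of all tested genes, with 21.9% higher and 29.7% lower; median -0.03). With other scalings 5 or 6 rose, and 5 fell without control replicate 1. Among the 9 that fell, Pgap1 was under 1 TPM in every Pax5-Etv6 library and so was tested only through the controls. Pigp, of the first enzyme complex, whose name carries an overlap tag, fell by 2.29 (adjusted p = 0.00118), from 15.9 and 14.7 TPM to 2.11, 2.33 and 2.57 TPM. Pigs, of the transamidase that joins anchor and protein, rose by 1.26 ± 0.19 (adjusted p = 0.00303), and Dpm3, which supports mannose donation, rose by 1.41 ± 0.25 (adjusted p = 0.00492). Of 22 tested genes of NAD metabolism, 6 rose, 7 fell and 9 were not called (59.1% called, again beside 51.7%; median -0.24), so both shares are near the background, and 3 fell without control replicate 1. Among the 6 NAD genes that rose, Qprt was under 1 TPM in both controls and so was tested only through the Pax5-Etv6 libraries. Nampt, which salvages nicotinamide for NAD synthesis, fell by 2.15 (adjusted p = 0.00114), from 75.5 and 50.5 TPM to 14.3, 12.8 and 12.5 TPM. The NAD-dependent deacylase Sirt7, whose name carries an overlap tag, rose by 2.36 ± 0.24 (adjusted p = 0.00095), and the NAD-consuming Parp3 rose by 2.72 ± 0.45 (adjusted p = 0.0041).

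The genes with the most similar pattern were found by the Euclidean distance between profiles over the 5 libraries, each centred on its own mean in log2(TPM + 1). Cd93 was closest to Ebpl at a distance of 0.11 and to Zbtb8a at 0.18. Cd24a was closest to Exoc5 (0.11) and Zfp62 (0.13), Cd52 to Rnase6 (0.43) and Cyth4 (0.51), and Cd38 to Itgb3 (0.38) and Fam46a (0.53). Bst1 was closest to Pllp (0.65) and Tcea2 (0.76). For Ms4a1, Ctsh lay at a distance of 1.93, farther than any pair given for the other antigens. Ctsh, the protease cathepsin H, was likewise highest in Pax5-Etv6 replicate 1, at 117, 28.0 and 9.12 TPM. It was picked for nearness to Ms4a1, so this shared order is no further result. The name of Exoc5 carries an overlap tag.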

How the data were processed

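RNA from 5 samples was used, and 2 ChIP samples of the labels were not analysed here. The authors deposited 1 table of TPM per library, with 24726 entries. The submitters' processing notes name HTSeq 0.5.3, DESeq2 1.4.1 and the build mm9 without their roles, and the aligner and gene lengths are not stated in the labels. Of entries above 0 in 2 or more libraries, 16538 of 16538 gave ratios of whole reads (relative tolerance 2e-12). The smallest such numbers served as recovered reads. Replicate numbers follow accession order.

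The test was limma 3.58.1 in R 4.3.3 on log2(TPM + 1), two-sided, with a mean-variance trend, 3 residual degrees of freedom and no covariate. It took genes that reached 1 TPM in 2 or more libraries. Benjamini-Hochberg adjustment ran over all 11805 genes, with calls under 0.05. The fit was tested on simulated data. The antigens and lists were chosen with earlier results of these data known. From each list the up to 3 called genes with the largest change in each direction could be named, and the 2 nearest profiles of each tested antigen; some of these are not reported here. Symbols were matched after removing name tags; 4 of the 9 antigens had a promoter in the RefSeq table. Other settings tried were voom on recovered reads, robust empirical Bayes, no trend, each library left out, no filter or one of 5 TPM, a pseudocount of 0.1 or 5 TPM, and 3 scalings (quantile, median-of-ratios, and a sum that omits the 50 highest genes).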

Additional observations from a re-analysis of the deposited data

How the results depend on the processing

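The call of Cd93 and the lack of one for Cd38 held in all 15 alternatives, and no called value of an antigen changed sign. With no filter the count of antigens called lower was 1 (Enpep) in place of 3. Leaving out each library in turn gave 1 to 3 antigens that rose and 1 to 3 that fell, 1349 to 2974 genes that rose and 2286 to 3331 that fell, 9 to 16 staging antigens that rose and 3 to 5 that fell, 2 to 6 family relatives that rose and 2 to 4 that fell, 2 to 3 GPI genes that rose and 5 to 9 that fell, and 4 to 9 NAD genes that rose and 3 to 8 that fell. With a pseudocount of 0.1 TPM 5 family relatives rose, and with voom 6. In GPI synthesis 5 genes rose with the filter of 5 TPM, median-of-ratios scaling, rescaling and voom, and 6 with quantile normalization. The cause of these shifts was not tested. Of 38 other genes that the naming rule picked, 26 kept their side of the threshold in every setting and 0 changed sign as a called value. A lone control is assumed to vary like the other group. No paired analysis was made, because the groups differ in genotype and the labels pair no library of 1 group with a library of the other. Values of Mme, Cd34 and, in Pax5-Etv6 B-ALL, Enpep rest on few reads, and their intervals cover counting error only.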

Other observations

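The profiles nearest to Enpep were those of Lalba and Kcnk1, at distances of 0.44 and 0.49. Lalba, which encodes the milk protein alpha-lactalbumin, had 145 and 54.4 TPM in control B-ALL replicates 1 and 2 and 0.756, 0.451 and 0.624 TPM in Pax5-Etv6 B-ALL. The potassium channel gene Kcnk1 had 60.3 and 34.0 TPM in the controls and 0.0802, 0 and 0.0662 TPM in Pax5-Etv6 B-ALL. Both were higher in control replicate 1 than in control replicate 2, as Enpep was. They were picked for nearness to Enpep, so this shared order is no further result. Like Enpep, both were under 1 TPM in every Pax5-Etv6 library and passed the filter only through the controls.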
